A study of Mus musculus with 32 samples.

Results

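The enzymes described here oxidise, hydrolyse or conjugate drugs, steroids and lipids. They were taken by gene symbol: cytochromes P450 of families 1 to 4, UDP-glycosyltransferases (Ugt), glutathione transferases (Gst), sulfotransferases (Sult), carboxylesterases (Ces), epoxide hydrolases (Ephx), aldehyde oxidases (Aox), flavin monooxygenases (Fmo) and paraoxonases (Pon). The symbols selected 148 probe sets for 146 genes, of 35556 probe sets on the array and 19938 genes that had a probe set to themselves. Another 19 probe sets were assigned to several of these genes at once and were left out of all counts. RefSeq lists 180 protein-coding mouse genes with such symbols, and 37 of them had no probe set of their own, among them the Ugt1a genes. Of the 146 genes, Cyp2d13, Cyp2d37-ps and Cyp4f41-ps are listed as transcribed pseudogenes, and they were kept in the counts.

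RiboTag mice carry a ribosomal protein that gains an HA tag where Cre is active, so that an antibody to HA pulls ribosomes and their mRNA (the IP) out of a homogenate of whole testis (the input). All animals were adult double heterozygotes from RiboTag homozygotes crossed to AMH-Cre mice, which target Sertoli cells, or to Cyp17iCre mice, which target Leydig cells, and in the Cyp17iCre line the study also saw HA staining in scattered cells of the tubules. The 32 arrays held 5 inputs and 5 IPs from the AMH-Cre line and 3 inputs and 3 IPs from the Cyp17iCre line, all after saline. The remaining arrays were IPs in groups of 2. In the AMH-Cre line these were acyline, acyline followed by FSH for 1 h or 4 h, cetrorelix, and cetrorelix followed by testosterone for 4 h. In the Cyp17iCre line they were acyline, and acyline followed by human LH for 1 h or 4 h. Acyline and cetrorelix block the receptor for gonadotropin-releasing hormone and so lower the pituitary drive to the testis. The study reports that serum FSH was reduced but not abolished. Every FSH, LH or testosterone group had received one of these blockers. The blockers were injected daily for 4 days in the Cyp17iCre line and for 3 days in the AMH-Cre line. For the 4 cetrorelix arrays one label says input, whereas the title and the sample type say IP, and they were taken as IPs.

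Oxidation by P450 and flavin enzymes, and hydrolysis by esterases and epoxide hydrolases, are called phase I. In phase II a transferase couples the product to glutathione, sulfate or a sugar, which makes it more soluble. The liver is the usual site of these reactions, but steroid-producing cells use several of the same enzymes on steroids, fatty acids and the aldehydes that form when lipids are oxidised. The best known of them in the Leydig cell is Sult1e1, the oestrogen sulfotransferase, which adds sulfate to oestrogens and so stops their binding to the receptor.

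The arrays were even, with median log2 values from 6.36 to 6.50 and correlations between arrays of a group from 0.983 to 0.993. In the Leydig IPs all 10 measured Leydig cell markers were called higher than in the inputs (median ratio 7.06), and in the Sertoli IPs all 17 Sertoli cell markers were (median ratio 5.21). Spermatid markers were lower in 16 of 18 cases in the Leydig IPs and in 14 of 18 in the Sertoli IPs. In the Leydig IPs 4 of 17 Sertoli markers were also called higher and 13 were not called, with a median ratio of 1.12. The summed linear signal of all 17 was 20000 to 21437, against 10459 to 11187 in the inputs and 40623 to 44037 in the Sertoli IPs. Such a sum is weighted towards the brightest markers. Arrays received equal amounts of RNA, so each ratio of IP to input compares shares of RNA, and in tissue of this kind fewer cells of a type and less RNA per cell cannot be told apart. The study counts its arrays in animals, the labels name no animal, and the p-values cover only the spread among these arrays. The small number of arrays limits the precision.

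Many of the enzymes gave only low signals in the testis. A linear signal over 50 was reached in at least 1 array by 70 of the 146 genes, and the other 76 never reached it. All 6 Cyp3 genes stayed under this level, as did 27 of 45 Cyp2 genes, 9 of 16 Cyp4 genes, 11 of 16 Sult genes, 9 of 10 Ugt genes and 8 of 16 Ces genes. Among the Gst genes 17 of 18 passed it, and all 4 Aox genes did. Pon1, the paraoxonase carried on high-density lipoprotein in blood, did not pass.

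In the Leydig IPs more of the enzymes were called higher than lower. They were chosen with earlier results of these data known, so the counts only describe them. Of 65 genes tested 28 were called higher in IP than in input and 2 lower, a gene being called at an adjusted p under 0.05 in limma with at least a 2-fold difference. Over all 24705 probe sets tested, 11.0% were called higher and 10.7% lower. The median ratio of the 65 genes was 1.32. The family with the most calls was the glutathione transferases, where 12 of 17 tested genes were higher and 1 was lower. Cyp2 and Cyp4 genes gave 3 calls each, Aox, Ephx and Sult 2 each, and Ces, Fmo, Pon and Ugt 1 each. The arrays of IP and input overlapped for none of the 28 higher and 2 lower genes. As these genes were picked by a call on the same arrays, this is no further evidence. Of the 65 genes, 5 passed the filter on low signal only through the IPs and 3 of those were among the 28, while 2 passed only through the inputs.

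**Figure D1:**
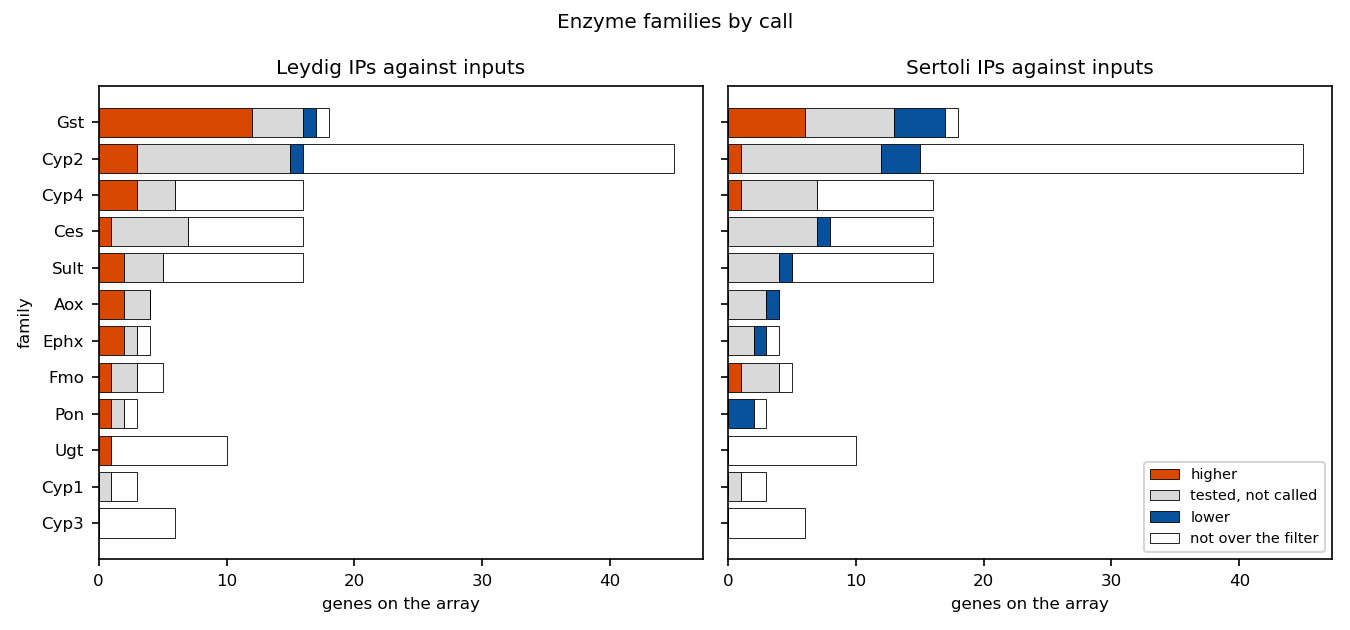
Number of genes (x axis) of each enzyme family (y axis) called higher or lower in IP than in input, tested without a call, or under the signal filter, for each line. Glutathione transferases gave 12 higher calls in the Leydig line and 6 in the Sertoli line.

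The highest ratios among the hydrolases belonged to Ces1d, a carboxylesterase that also splits stored triacylglycerol, and Pon3, a lactonase of the paraoxonase family. Ces1d had log2 values of 8.40, 8.34 and 8.46 in the inputs of the Leydig line and 12.36, 12.44 and 12.32 in its IPs. The IPs were higher by 3.97 (SE 0.07), a 15.7-fold difference (limma, adjusted p = 1.9e-07). The order turned round in the Sertoli line, with 8.58, 8.12, 8.31, 8.51 and 8.44 in the inputs and 6.21, 5.97, 5.48, 6.26 and 6.08 in the IPs. Every Sertoli IP lay below every input, by 2.39 on average (SE 0.14, adjusted p = 1.7e-08). Pon3 followed the same order: 7.40, 7.33 and 7.18 in the inputs and 11.09, 11.09 and 11.05 in the IPs of the Leydig line (13.7-fold, adjusted p = 1.9e-07). In the Sertoli line Pon3 had 7.32, 6.89, 7.09, 7.36 and 7.23 in the inputs and 5.45, 5.20, 5.61, 5.72 and 5.22 in the IPs, without overlap (adjusted p = 6.4e-08), and 1 of its 5 Sertoli IPs was over the filter.

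Pon2, an intracellular lactonase, showed a smaller version of this order. In the Leydig line its values were 9.29, 9.29 and 9.31 in the inputs and 10.06, 10.11 and 10.16 in the IPs, a 1.75-fold difference that missed the 2-fold limit. In the Sertoli line they were 9.16, 9.21, 9.30, 9.06 and 9.16 in the inputs and 7.81, 7.92, 7.97, 7.97 and 7.71 in the IPs. The Sertoli IPs were lower by 1.30 (SE 0.07, limma, adjusted p = 6.1e-09). No other carboxylesterase was called in the Leydig IPs, although 7 were tested.

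Epoxide hydrolases turn epoxides into diols, and of the 4 Ephx genes Ephx1 and Ephx2 were called higher in the Leydig IPs. Ephx4 was tested (log2 difference -0.69) and not called, and Ephx3 stayed under the filter. Ephx1, the microsomal enzyme for aromatic and drug epoxides, had 10.81, 10.48 and 10.60 in Leydig inputs and 13.40, 13.38 and 13.34 in the IPs (6.68-fold, limma, adjusted p = 3.7e-07). Its Sertoli inputs were at 10.68, 10.14, 10.20, 10.54 and 10.61 and its Sertoli IPs at 8.01, 7.71, 7.64, 8.06 and 7.74, lower by 2.60 (SE 0.13, adjusted p = 2.9e-09). Thus the 2 IP fractions lay on opposite sides of their inputs with no array out of order. Ephx2, the soluble enzyme for fatty acid epoxides, had 5.91, 5.51 and 5.65 in Leydig inputs and 8.51, 8.75 and 8.58 in the IPs (7.60-fold, adjusted p = 5.9e-07). Its Sertoli IPs, at 6.72, 6.60, 6.31, 6.33 and 6.47, also lay above their inputs at 5.80, 5.54, 5.06, 5.70 and 5.77, by 0.91 (SE 0.14), which is less than 2-fold.

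**Figure D2:**
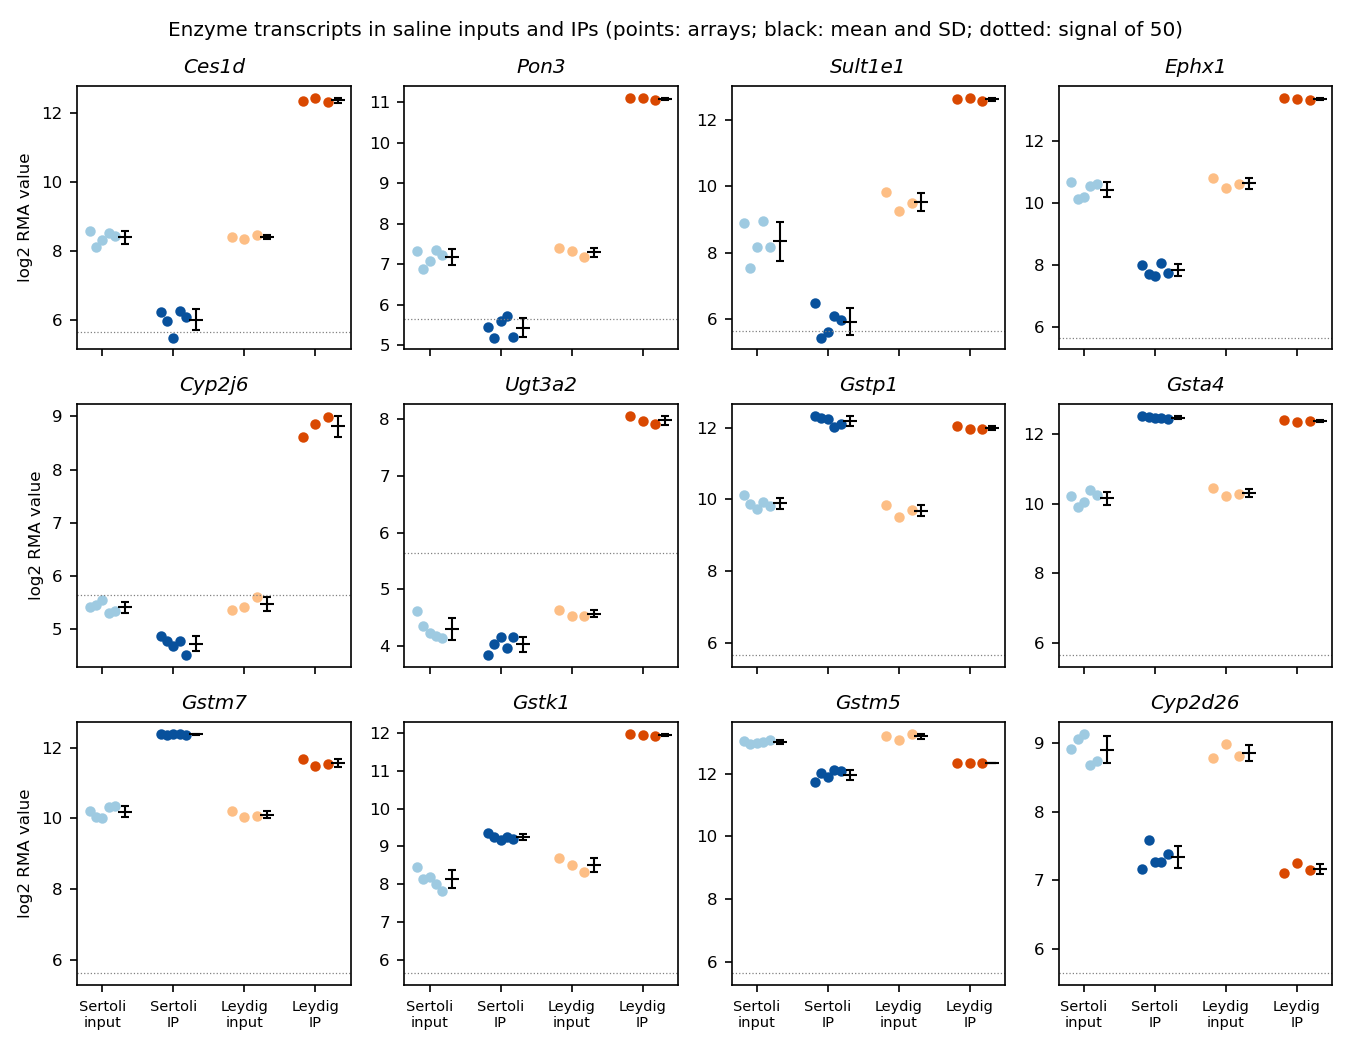
Log2 RMA value (y axis) of 12 enzymes in each saline array, grouped as input and IP of each line, with black marks for the mean and SD and a dotted line at a linear signal of 50. Ces1d, Pon3, Ephx1 and Sult1e1 lie above the input in the Leydig IPs and below it in the Sertoli IPs.

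Of the sulfotransferases only Sult1e1 and Sult1a1 were called in the Leydig IPs, of 5 tested. Sult1e1 had 9.82, 9.27 and 9.50 in Leydig inputs and 12.64, 12.66 and 12.58 in the IPs, an 8.53-fold difference (log2 3.09, SE 0.13, limma, adjusted p = 7.6e-07). The Sertoli inputs, at 8.90, 7.53, 8.17, 8.96 and 8.16, had a range of over 1 log2 unit, and the Sertoli IPs were at 6.48, 5.43, 5.59, 6.10 and 5.97. They did not overlap, and the IPs were lower by 2.43 (SE 0.28, adjusted p = 6.1e-06). Sult1a1, a sulfotransferase of phenols, had 6.89, 6.67 and 6.85 in Leydig inputs and 9.59, 9.80 and 9.54 in the IPs (7.13-fold, adjusted p = 3.7e-07). The Sult1a1 inputs of the Sertoli line (6.95, 6.39, 6.54, 6.95 and 6.80) overlapped with the IPs (6.75, 6.80, 6.87, 6.84 and 6.78), and the difference of 0.08 (SE 0.11) had an adjusted p of 0.51.

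Aox1 and Aox3, which oxidise aldehydes and nitrogen heterocycles with a molybdenum cofactor, were called higher, of the 4 Aox genes. Aox1 had 7.24, 7.16 and 7.15 in Leydig inputs and 10.33, 10.42 and 10.51 in the IPs (9.42-fold, limma, adjusted p = 1.9e-07). Aox3 had 8.59, 8.75 and 8.42 in the inputs and 11.07, 11.51 and 11.00 in the IPs (6.07-fold, adjusted p = 2.6e-06). The Sertoli IPs of both genes were under their inputs. The difference was 1.36 for Aox3 (log2 difference -1.36, SE 0.07, adjusted p = 5.7e-09) and did not reach 2-fold for Aox1 (-0.42, SE 0.12, adjusted p = 0.0071).

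Ugt3a2 was the only UDP-glycosyltransferase with a probe set of its own and a signal over the filter. The human enzyme of this name uses UDP-sugars other than UDP-glucuronic acid. It had 4.65, 4.53 and 4.54 in Leydig inputs and 8.06, 7.97 and 7.91 in the IPs (limma, adjusted p = 1.9e-07). All inputs were under a signal of 50, and against that level the IPs were at least 5.05-fold higher, a bound used below for every group that lay wholly under it. Both Sertoli fractions, with inputs from 4.15 to 4.62 and IPs from 3.84 to 4.16, stayed under the filter.

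The P450 enzymes called higher in the Leydig IPs were Cyp2j6, Cyp2d22, Cyp2f2, Cyp4f13, Cyp4f14 and Cyp4f15. CYP2J enzymes oxidise polyunsaturated fatty acids, and CYP4F enzymes hydroxylate the end of fatty acid and leukotriene chains. Cyp2j6 had 5.37, 5.42 and 5.61 in the inputs and 8.60, 8.85 and 8.99 in the IPs, at least 9.01-fold higher since all inputs were under the filter (limma, adjusted p = 3.8e-07), and it was under the filter in the Sertoli line. Cyp2d22 had 8.26, 8.31 and 8.20 in the inputs and 11.03, 11.09 and 11.05 in the IPs (6.97-fold, adjusted p = 1.9e-07). Cyp4f14, with all inputs under the filter, was at least 5.57-fold higher, and Cyp4f15, with 1 of 3 inputs over it, 5.09-fold, both without overlap and without a call in the Sertoli line. Cyp2f2, known in mouse lung for activating naphthalene, gave the smallest of these ratios, 2.17. Fmo5, a flavin monooxygenase that inserts oxygen into ketones, was 2.97-fold higher in the Leydig IPs (adjusted p = 5.9e-05).

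Among the glutathione transferases the leading member was Gstk1, the enzyme of mitochondria and peroxisomes. It had 8.70, 8.51 and 8.34 in Leydig inputs and 12, 11.95 and 11.94 in the IPs (10.9-fold, limma, adjusted p = 2.5e-07). In the Sertoli line the IPs at 9.36, 9.25, 9.17, 9.26 and 9.21 were also above the inputs at 8.46, 8.15, 8.20, 7.99 and 7.83, by 2.18-fold (adjusted p = 9.0e-07). Gsta3, whose human counterpart shifts the double bond of steroid intermediates, had 9.47, 9.09 and 9.14 in Leydig inputs and 12.41, 12.24 and 12.41 in the IPs (8.69-fold, adjusted p = 4.5e-07). The Gsta3 inputs (9.41, 9.22, 9.11, 9.16 and 9.14) and IPs (9.46, 9.42, 9.41, 9.31 and 9.20) of the Sertoli line overlapped. Gsto1, an omega-class enzyme that reduces mixed disulfides, was 6.08-fold higher in the Leydig IPs, and Gstt1, of the theta class, was 5.07-fold higher. The remaining calls were Gstm2 and Gstp1 (both 4.94-fold), Gsta4 (4.18-fold), Gstm7 (2.74-fold), Gstm1 (2.71-fold), Gstm6 (2.37-fold), Gstm4 (2.30-fold) and Gstm3 (2.28-fold). Genes of one class are close copies, so a probe set of one could also capture mRNA of another.

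RefSeq gave an upstream sequence (build GRCm38.p6, 250 bases before each listed start) for 120 of the 146 genes and 23 of the 28 called higher in the Leydig IPs. Matches were counted over all 250 bases of every start, also where these lie inside the gene as RefSeq bounds it. The CAAGGNCA and TGACNNNGC matches of Gstm7 and Cyp4f14, and the GCGTG match of Aox1, lay in such bases. The sequences printed below leave out bases inside the gene. Both strands were searched for CAAGGNCA, the letters of a monomer site of NR5A1, the orphan receptor that drives steroid-producing genes, and for TGACNNNGC, the core of the antioxidant response element through which NRF2 acts on glutathione transferases. CAAGGNCA occurred in 3 of the 23 (13.04%), in 2 of 29 other tested genes (6.9%) and in 6.33% of all 27025 genes. TGACNNNGC occurred in 3 of the 23 (13.04%), in 1 of the 29 (3.45%) and in 11.52% of all genes. GCGTG, the core bound by the aryl hydrocarbon receptor, occurred in 5 of the 23 (21.74%), in 8 of the 29 (27.59%) and in 30.85% of all genes. No pattern contains another, and a match describes the letters only. One example of each of the first pair is shown, from genes of both patterns: Gsta3, higher in the Leydig IPs alone, at chr1:21240335-21240564 on the plus strand with the antioxidant core in capitals, and Cyp4f13, higher in both IPs, at chr17:32947416-32947611 on the minus strand with the NR5A1 letters in capitals, which match on the opposite strand.
Gsta3: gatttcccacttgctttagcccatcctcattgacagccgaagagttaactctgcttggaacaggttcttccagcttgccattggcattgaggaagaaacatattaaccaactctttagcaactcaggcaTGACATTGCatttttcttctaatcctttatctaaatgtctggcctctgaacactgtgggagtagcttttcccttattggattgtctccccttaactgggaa
Cyp4f13: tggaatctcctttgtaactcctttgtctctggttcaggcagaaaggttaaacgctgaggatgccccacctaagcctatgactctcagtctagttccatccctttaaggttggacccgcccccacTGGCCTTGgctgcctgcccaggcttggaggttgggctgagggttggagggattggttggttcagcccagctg

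Members that lie side by side did not all go the same way. The Gstm cluster on chromosome 3 holds 7 members, and 6 were called higher in the Leydig IPs, the exception being Gstm5. The Cyp4f stretch on chromosome 17 gave 3 higher calls among 5 tested genes. Of 8 members around Ces1d on chromosome 8 only Ces1d was called among 4 tested, and of 6 Cyp2j genes on chromosome 4 only Cyp2j6 was called among 2 tested. In the Gstt cluster on chromosome 10 Gstt1 was higher and Gstt4 lower in the Leydig IPs, while Gstt2, Gstt3 and Gstt4 were lower in the Sertoli IPs. Sult1e1 was the only one of 11 Ugt2 and Sult1 genes on its stretch of chromosome 5 with a signal over the filter in the Leydig arrays.

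In the Sertoli IPs the enzymes were split. Of 66 genes tested 9 were called higher and 13 lower, where 12.4% and 11.7% of 24797 probe sets were. Their median ratio was 0.903. The higher group held 6 glutathione transferases (Gsta4, Gstp1, Gstm7, Gstm6, Gstm2 and Gstk1) with Cyp4f13, Cyp2d22 and Fmo4. The lower group held Ephx1, Sult1e1, Ces1d, Pon3, Cyp2d26, Cyp2c55, Aox3, Pon2, Cyp2r1, Gstt2, Gstt3, Gstm5 and Gstt4. IP and input arrays did not overlap for the 9 higher genes and for 12 of the 13 lower genes, the exception being Cyp2c55. Here too the genes were picked by a call on the same arrays. Of the 66 genes, 2 passed the filter only through the IPs and 4 only through the inputs, with 1 call in each set.

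Gsta4, which conjugates the lipid aldehyde 4-hydroxynonenal, was the highest ratio in the Sertoli line. Its Sertoli inputs were at 10.22, 9.89, 10.06, 10.38 and 10.24 and its IPs at 12.53, 12.48, 12.47, 12.47 and 12.43, a 4.98-fold difference (log2 2.32, SE 0.08, limma, adjusted p = 3.9e-10). The Leydig line gave nearly the same picture, with 10.44, 10.22 and 10.27 in the inputs and 12.40, 12.36 and 12.37 in the IPs (4.18-fold, adjusted p = 5.2e-07). Gstp1, the pi-class enzyme, had 10.13, 9.87, 9.72, 9.93 and 9.80 in the Sertoli inputs and 12.33, 12.27, 12.24, 12.02 and 12.09 in the IPs (4.92-fold, adjusted p = 5.2e-10). Its Leydig inputs were at 9.84, 9.51 and 9.70 and its Leydig IPs at 12.05, 11.96 and 11.96. Both genes were thus high in the 2 IP fractions by a similar factor.

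Gstm7 and Gstm6 were higher in both lines and more so in the Sertoli line. Gstm7 had 10.21, 10.04, 10.02, 10.32 and 10.35 in the Sertoli inputs and 12.37, 12.35, 12.39, 12.39 and 12.35 in the IPs (4.54-fold, limma, adjusted p = 2.6e-10), against 10.22, 10.03 and 10.07 in Leydig inputs and 11.67, 11.48 and 11.54 in the IPs. Gstm6 had 9.10, 8.52, 8.60, 9.25 and 8.99 in the Sertoli inputs and 11.28, 10.89, 10.86, 10.90 and 10.90 in the IPs (4.21-fold, adjusted p = 6.3e-08), against 8.88, 8.86 and 8.84 in Leydig inputs and 10.11, 10.10 and 10.12 in the IPs. Cyp4f13 was 3.33-fold and Gstm2 2.55-fold higher in the Sertoli IPs, and Cyp2d22 2.31-fold. Fmo4, a flavin monooxygenase, was at 4.86, 4.99, 5.15, 4.49 and 4.82 in the Sertoli inputs and 5.62, 6.33, 6.09, 5.95 and 5.40 in the IPs. Since no Sertoli input passed the filter, the Fmo4 IPs were at least 1.18-fold higher, and the call itself was lost without any one of 4 arrays. The Sertoli marker sums given above moved with the Leydig IP values of the genes that were higher in both lines, and their part in those values was not tested.

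Set side by side, 61 genes were tested in both lines. Of these 8 were higher in both (Cyp2d22, Cyp4f13, Gsta4, Gstk1, Gstm2, Gstm6, Gstm7 and Gstp1), 5 were higher in the Leydig and lower in the Sertoli IPs (Aox3, Ces1d, Ephx1, Pon3 and Sult1e1), 13 were called higher in the Leydig IPs alone, 5 lower in the Sertoli IPs alone, 2 lower in both and 28 were called in neither. The test of the difference between the 2 ratios, in which each line has its own inputs, called 23 of 70 genes higher in the Leydig line, where 5.48% of 25524 probe sets were. Of the 23, Cyp2j6, Ugt3a2 and Cyp2c55 were under the filter in every array of one line, and the other 20 were over it in both. It called 0 lower, where 5.98% of probe sets were. At an unadjusted p under 0.05 in limma, counting both directions, 46 of the 70 differed, as did 10899 of the 25524 probe sets.

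**Figure D3:**
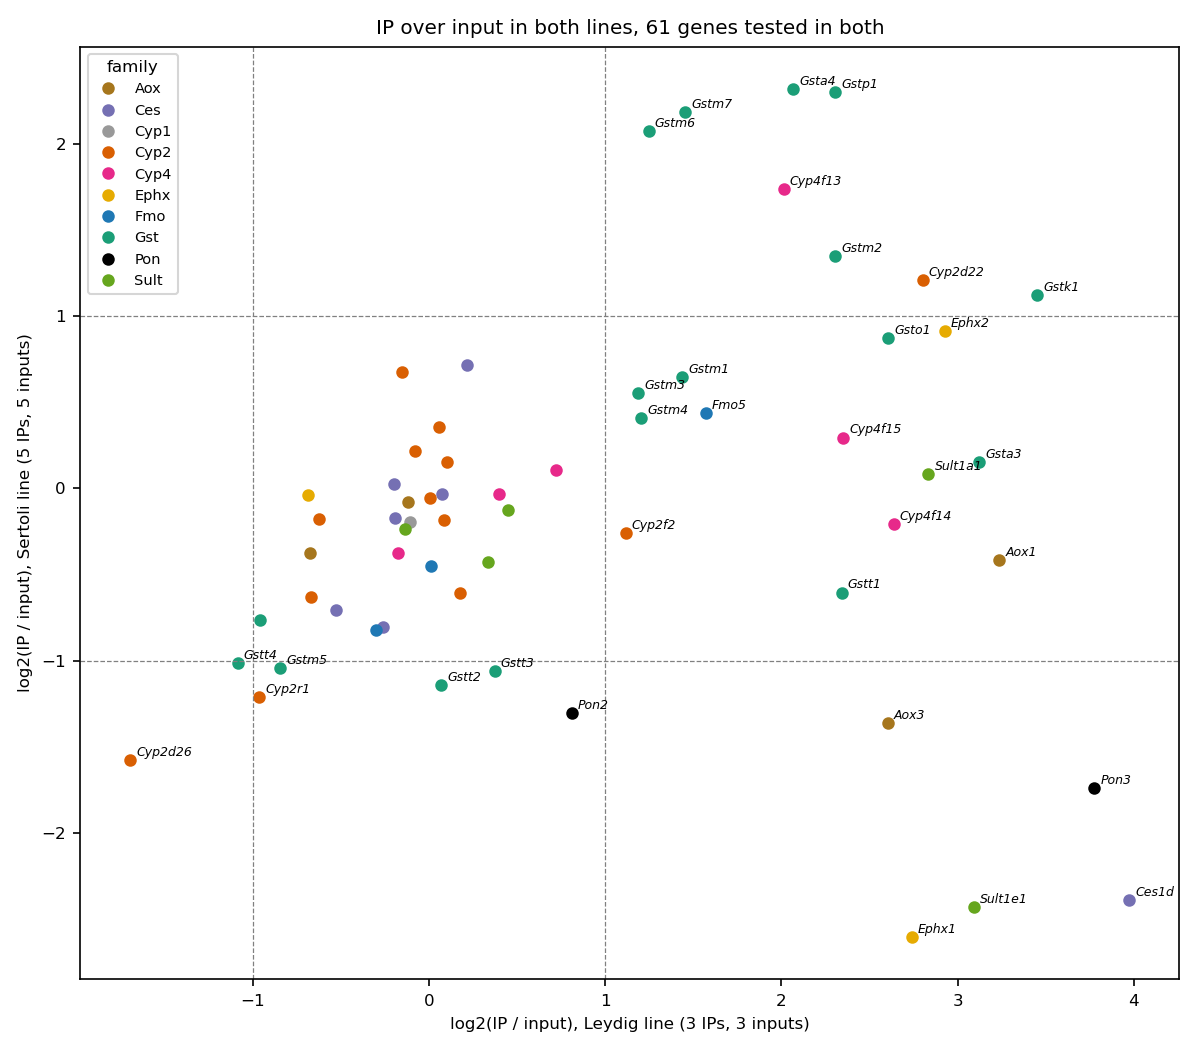
Log2 ratio of IP to input in the Leydig line (x axis) against that in the Sertoli line (y axis), 1 point per enzyme tested in both lines, coloured by family, with dashed lines at 2-fold. Gsta4 and Gstp1 lie high on both axes, and Ces1d, Sult1e1, Ephx1, Pon3 and Aox3 lie at lower right.

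The difference was widest for Ces1d, at 6.36 on the log2 scale (SE 0.20, limma, adjusted p = 2.3e-12), with Sult1e1 (5.52, SE 0.40), Pon3 (5.51, SE 0.17, with 4 of its 5 Sertoli IPs under the filter), Ephx1 (5.34, SE 0.19), Aox3 (3.97, SE 0.16) and Aox1 (3.65, SE 0.17) next among the named genes over the filter in both lines. For Gstp1 the difference was 0.01 (SE 0.14, adjusted p = 0.98) and for Gsta4 it was -0.25 (SE 0.13, adjusted p = 0.14). Gstm7 (-0.73, SE 0.12, adjusted p = 8.6e-05) and Gstm6 (-0.83, SE 0.20, adjusted p = 0.0036) passed the threshold on p but not on fold, with the larger ratio in the Sertoli line. Cyp4f13 (0.28, adjusted p = 0.046), Gstm1 (0.79), Gstm2 (0.95), Gstm3 (0.63) and Gstm4 (0.80) were likewise under 2-fold, but a second Gstm3 probe set, with the lower mean, gave 1.10 (2.14-fold, adjusted p = 4.4e-05) and was called. Leydig cell markers summed to 5828 to 6393 in the Sertoli IPs and to 8372 to 9915 in the Sertoli inputs, and were thus lower in the same IPs as Ces1d, Sult1e1, Ephx1, Pon3 and Aox3. Their part in those 5 ratios was not tested.

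In the direct comparison of saline IPs 29 of 67 enzymes were higher in the Leydig line and 6 were lower at 1.5-fold, where 12.4% and 13.3% of 25399 probe sets were. Sult1e1 differed most, 105-fold (log2 6.71, SE 0.22), with Ces1d at 82.8-fold and Ephx1 at 46.4-fold. Pon3, with 4 of 5 Sertoli IPs under the filter, was at least 42.8-fold higher. Cyp2j9, with all 5 Sertoli IPs under the filter, was at least 1.11-fold higher. The 6 that were lower in the Leydig IPs were Sult4a1, Gstm6, Gstm7, Fmo4, Cyp2s1 and Ephx4. All 3 Leydig IPs of Fmo4 and Ephx4 were under the filter. Their Sertoli IPs were at least 1.18-fold and 1.16-fold higher, bounds that lie short of 1.5-fold, as does that of Cyp2j9. Gstm6 was at 0.551 times and Gstm7 at 0.570 times its Sertoli value. The lines were run as separate experiments, so line and experiment cannot be told apart here. Sult4a1, a sulfotransferase best known from brain and singled out after its values were seen, was lower by 1.58 (SE 0.24, limma, adjusted p = 1.7e-05). Its inputs already differed between lines, at 6.13, 6.06 and 6.13 against 6.70, 8.32, 8.27, 7.55 and 8.09, and it was called in neither enrichment.

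A few members were lower in the IPs of both lines. Cyp2d26 had 8.78, 8.99 and 8.81 in the inputs and 7.10, 7.25 and 7.15 in the IPs of the Leydig line (log2 difference -1.69, SE 0.09, limma, adjusted p = 1.5e-06). It had 8.92, 9.05, 9.14, 8.68 and 8.74 in the Sertoli inputs and 7.16, 7.58, 7.27, 7.26 and 7.38 in the Sertoli IPs (-1.58, SE 0.11, adjusted p = 4.7e-08), and the fractions did not overlap in either line. Gstt4 was at 0.471 times its input in the Leydig and 0.496 times in the Sertoli line. Gstm5 was lower in both, with 13.21, 13.09 and 13.27 against 12.33, 12.35 and 12.36 in the Leydig line, where 0.556 missed the 2-fold limit, and with 0.485 in the Sertoli line. Cyp2r1, which hydroxylates vitamin D at carbon 25, was at 0.432 times its input in the Sertoli IPs and at 0.512 times in the Leydig IPs, the latter not called. Spermatid markers were lower in the same IPs, with median ratios of 0.313 in the Leydig and 0.314 in the Sertoli line. Spermatogonia and spermatocyte markers had median ratios of 0.394 and 0.374, and macrophage markers 0.547 and 0.542. The part of these cell types in the ratios of the enzymes was not tested.

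Cyp2c55, a P450 of the CYP2C family, was uneven among arrays of a group. Its Sertoli inputs were at 7.07, 6.98, 6.65, 4.81 and 6.74 and its Sertoli IPs at 5.29, 5.31, 5.29, 5.12 and 4.27, so that 1 input lay below 4 of the 5 IPs (limma, adjusted p = 0.0070). With all IPs under the filter, the inputs were at least 1.75-fold higher. In the Leydig line the inputs were at 4.48, 4.61 and 4.63 and the IPs at 4.34, 4.92 and 4.88. All Leydig arrays were under the filter. The fitted difference between lines was called (adjusted p = 0.043), and this call was lost without any one of 11 arrays, with adjusted p-values up to 0.094.

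Some enzymes that act on steroids or lipids were not called in any comparison of IP and input. Cyp1b1, which hydroxylates oestradiol, differed by -0.11 (SE 0.08, limma, adjusted p = 0.28) in the Leydig line and -0.19 (SE 0.11, adjusted p = 0.15) in the Sertoli line. Fmo1 differed by 0.01 (SE 0.09, adjusted p = 0.92) in the Leydig line, a sign that changed with the scaling of the arrays, and by -0.45 (SE 0.08, adjusted p = 0.0002) in the Sertoli line, under 2-fold. Cyp2j9 was at 5.02, 5.20 and 5.07 in Leydig inputs and 5.79, 5.81 and 5.80 in the IPs, with all inputs under the filter, and was not called.

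The probe sets shared by several of the enzymes gave values where single genes did not. One set assigned to 8 Ugt1a symbols, the glucuronyl transferases of bilirubin, phenols and steroids, had 8.06, 7.95 and 8.05 in Leydig inputs and 10.64, 10.11 and 10.71 in the IPs (5.53-fold, limma, adjusted p = 4.1e-06). In the Sertoli line it had 8.20, 7.87, 7.86, 8.09 and 8.02 in the inputs and 6.61, 6.15, 6.24, 6.79 and 6.64 in the IPs, lower by 1.52 (log2 difference -1.52, SE 0.13, adjusted p = 3.2e-07). This is the order of Ces1d and Ephx1, and which Ugt1a gene the signal came from cannot be read from the set. The 4 sets shared by Gsta1 and Gsta2 were 5.42-fold to 5.86-fold higher in the Leydig IPs and 4.72-fold to 5.01-fold higher in the Sertoli IPs. Those shared by Gstp1 and Gstp2 gave 4.83-fold and 5.02-fold in the Leydig line and 4.54-fold and 4.58-fold in the Sertoli line.

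Acyline gave a single call among these enzymes in the Leydig IPs. Of 64 tested 1 was called lower and 0 higher at 1.5-fold, where 0.143% of 24461 probe sets were called in either direction and 0.110% lower. The other genes of the 28 called higher in the IPs had log2 changes from -0.62 (Cyp2d22) to 0.42 (Gstt1), not called. These comparisons use the same saline IPs as the ratios to input. The gene that was called was Ugt3a2. Its saline IPs were at 8.06, 7.97 and 7.91, its acyline IPs at 5.97 and 6.35, and the IPs after LH at 6.17 and 6.14 (1 h) and 6.54 and 6.67 (4 h). No treated array came within 1 log2 unit of a saline array. Under acyline it fell by 1.82 on the log2 scale (SE 0.12, limma, adjusted p = 0.0052). An ordinary contrast without moderated variances gave an adjusted p of 0.126 and a fit with the replicate number as a block 0.0554, and the call then failed.

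**Figure D4:**
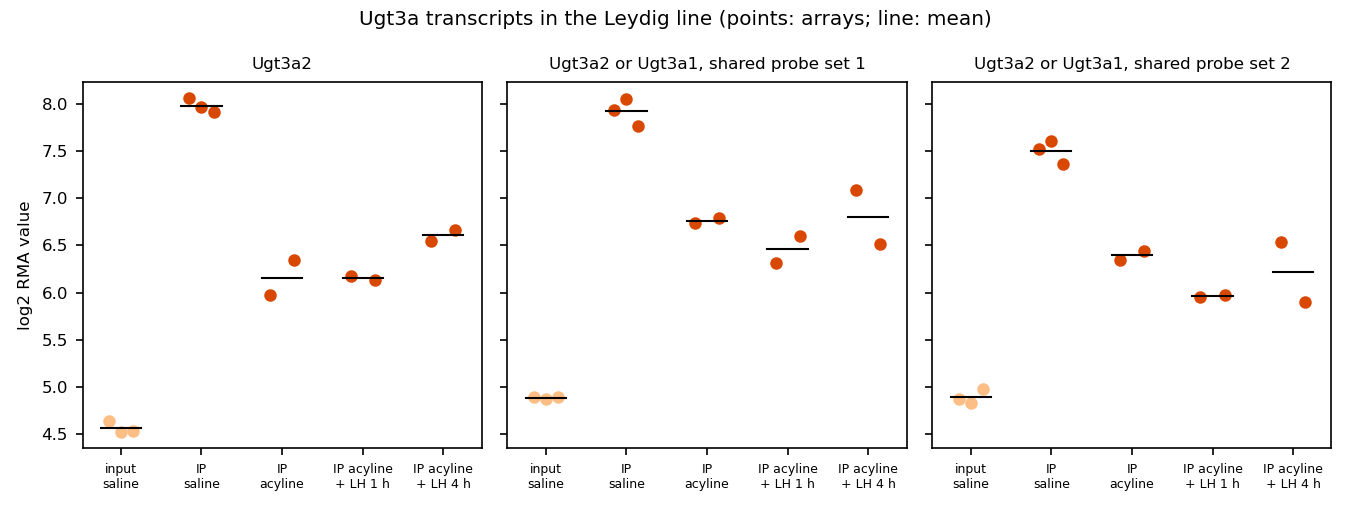
Log2 RMA value (y axis) of Ugt3a2 and of the 2 probe sets shared with Ugt3a1 in each Leydig array, by treatment, with a line at each group mean. The saline IPs of Ugt3a2 lie at 7.91 to 8.06 and all 6 treated IPs at 5.97 to 6.67.

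After LH for 4 h Ugt3a2 was 0.45 above the acyline IPs (SE 0.13, limma, adjusted p = 0.15) and still 1.37 below saline (log2 difference -1.37, SE 0.12, adjusted p = 0.0095). The 2 probe sets shared by Ugt3a2 and Ugt3a1 gave lower values under acyline too. The first had 7.94, 8.05 and 7.77 in saline and 6.73 and 6.79 in acyline IPs (log2 difference -1.16, SE 0.17, adjusted p = 0.067, not called). The second had 7.52, 7.61 and 7.36 against 6.35 and 6.44 (-1.10, adjusted p = 0.068, not called). Both were called lower at 4 h of LH against saline, at -1.12 (adjusted p = 0.013) and -1.28 (adjusted p = 0.010). Other shared sets gave no call. The 4 sets of Gsta1 and Gsta2 were at 0.52 to 0.57 under acyline (limma, adjusted p from 0.096 to 0.11). After LH for 4 h they were at -0.43 to -0.55 against acyline (limma, adjusted p from 0.081 to 0.11). The Ugt1a set was at -0.76 under acyline (limma, adjusted p = 0.25). The test of the acyline effect between lines called 1 of 67 enzymes, where 0.0669% of 25399 probe sets were called, and it was Ugt3a2. Ugt3a2 was under the filter in every Sertoli array, so this call holds no measured effect in the Sertoli line, and acyline was given for different numbers of days. The summed signal of Leydig markers was 50743 to 53722 in saline and 37827 to 40448 in acyline IPs, with 1 of 10 markers called lower, and its part in the Ugt3a2 value was not tested.

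At 4 h of LH against saline 3 of 64 enzymes were called, all lower, where 3.32% of probe sets were called in either direction and 1.75% lower. With the replicate number as a block none of the 3 was called, with adjusted p-values of 0.0605 for Ugt3a2 and Cyp2d22 and 0.0873 for Aox1. Over all probe sets 47.4% of the calls were higher, and 70.9% after centring each array on its median. Beside Ugt3a2 they were Cyp2d22 and Aox1. Cyp2d22 had 11.03, 11.09 and 11.05 in saline IPs, 10.42 and 10.45 after acyline, 10.55 and 10.28 at 1 h and 10.38 and 10.03 at 4 h of LH. All treated arrays lay below the saline arrays, and the difference at 4 h was -0.86 (SE 0.13, limma, adjusted p = 0.011), while that under acyline, -0.62 (SE 0.13), had an adjusted p of 0.11. Aox1 had 10.33, 10.42 and 10.51 in saline, 9.97 and 10.05 after acyline, 10.22 and 10.05 at 1 h and 9.90 and 9.53 at 4 h (-0.71, SE 0.13, adjusted p = 0.021). The Aox1 call was lost in the ordinary contrast (adjusted p = 0.0651), without 1 of the LH arrays (4 h, replicate 2, where the difference was -0.52) and without any 1 of the saline IPs.

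LH itself called none of the enzymes against acyline. At 1 h 0 of 64 were called, where 0.00818% of probe sets were, with log2 changes from -0.44 (Sult4a1) to 0.42 (Cyp2f2). An unadjusted p under 0.05 in limma was reached by 2 of the 64 genes and by 1483 of 24461 probe sets. At 4 h 0 of 64 were called, where 0.613% of probe sets were, with changes from -0.65 (Ces2g) to 0.68 (Ces1b). Here 8 of the 64 genes and 4470 of 24461 probe sets had an unadjusted p under 0.05, and the smallest adjusted p of the genes was 0.0778. The ordinary contrast called 0 in both. Sult1e1 stayed high throughout, with 12.64, 12.66 and 12.58 in saline, 12.55 and 12.73 after acyline, 12.55 and 12.49 at 1 h and 12.24 and 12.40 at 4 h of LH. The acyline arrays overlapped with saline, and the arrays after LH lay just below it. Cyp2j6 was at 8.60, 8.85 and 8.99 in saline, 8.19 and 8.31 after acyline, 8.63 and 8.46 at 1 h and 8.36 and 8.39 at 4 h, and its acyline difference of -0.56 had an adjusted p of 0.14.

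**Figure D5:**
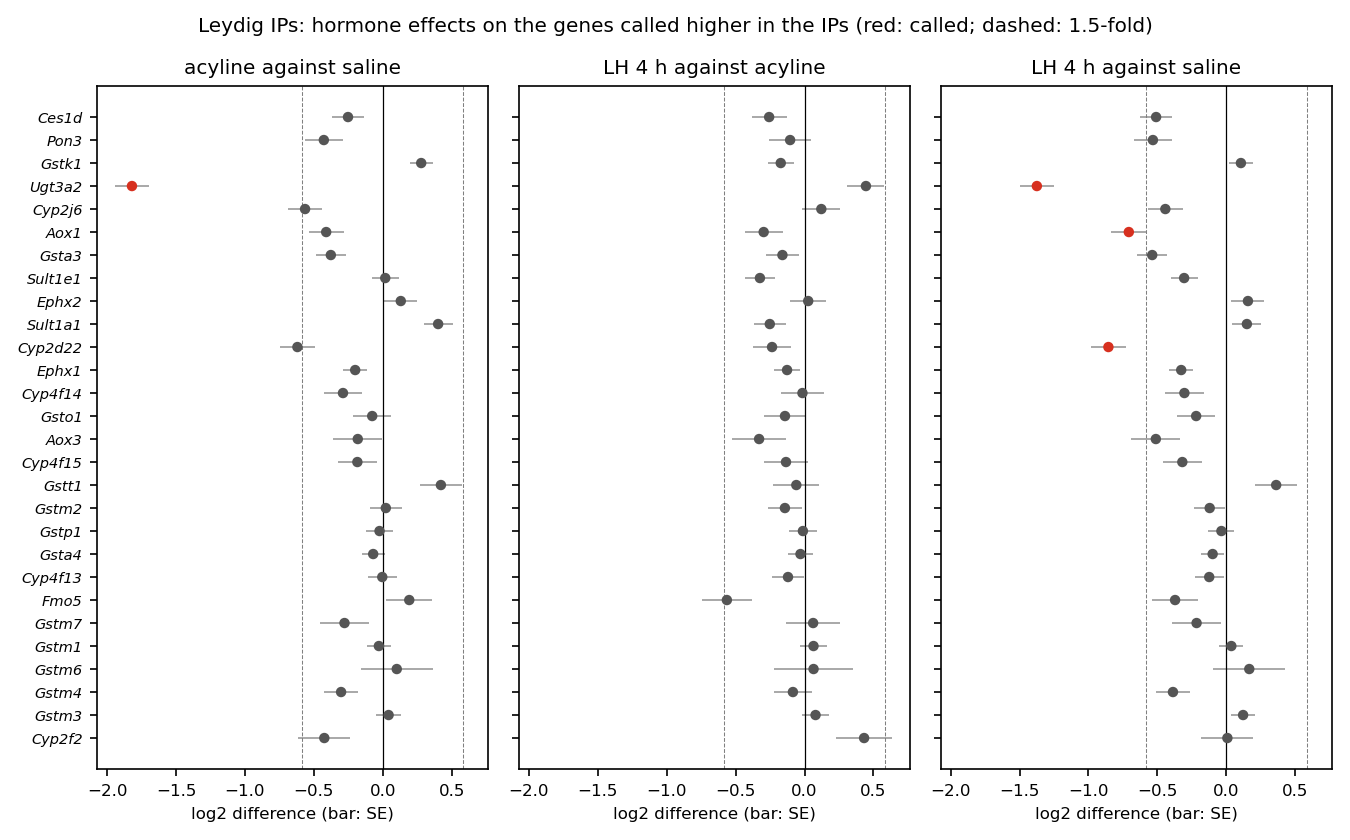
Log2 difference (x axis, bars for the SE) in the Leydig IPs for the 28 enzymes called higher there than in the inputs, in 3 hormone comparisons, with called genes in red and dashed lines at 1.5-fold. Ugt3a2 lies at -1.82 under acyline, and no gene is called for LH 4 h against acyline.

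In the Sertoli IPs 0 of 63 enzymes were called in each of 5 hormone comparisons. With acyline the changes ran from -0.67 (Sult4a1) to 0.25 (Ces3a), where 0.00406% of 24648 probe sets were called. An unadjusted p under 0.05 in limma was found for 7 of the enzymes and for 1234 of the 24648 probe sets. With cetrorelix the changes ran from -0.52 (Cyp2d40) to 0.30 (Gsto1), with 4 such genes and 1229 such probe sets, where 0.0122% of probe sets were called. Testosterone after cetrorelix gave -0.36 (Fmo4) to 0.38 (Ces1b) with 1 such gene and 1234 such probe sets, where 0.00406% were called. FSH after acyline gave -0.28 (Pon3) to 0.32 (Gstt4) at 1 h with 4 such genes and 2324 such probe sets, where 0% were called. At 4 h it gave -0.50 (Cyp2d40) to 0.47 (Sult1e1) with 5 such genes and 1085 such probe sets, where 0.0203% were called. The ordinary contrast also called 0 in each. Members such as Gsta4 and Gstp1, high in the Sertoli IPs, were among those not called. With 2 arrays a group small changes could not be detected.

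Genes that serve these enzymes were taken from 7 lists, whose counts stand beside 11.0% higher and 10.7% lower calls over all probe sets in the Leydig line and 12.4% and 11.7% in the Sertoli line. Of the electron donors and cofactor suppliers of P450 and flavin enzymes 7 of 11 were higher in the Leydig IPs and 1 was lower. Idh1, which makes NADPH in the cytosol, was 7.40-fold and Pgrmc1, a haem protein that binds P450 enzymes, 6.48-fold higher. Of the enzymes that make the sulfate and glucuronate donors, or split the conjugates, 8 of 11 were higher, among them Papss2 (8.45-fold) and Papss1 (5.00-fold), which make the sulfate donor of Sult1e1, and Ugdh (3.80-fold), which makes UDP-glucuronic acid. Of genes for glutathione synthesis and recycling 6 of 14 were higher, led by Slc7a11, the cystine importer, at 8.28-fold. Of aldehyde and alcohol dehydrogenases and quinone reductases 16 of 21 were higher and 1 lower, with Nqo1, the quinone reductase, at 12-fold.

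Other conjugating enzymes were higher in 4 of 9 cases, with the microsomal glutathione transferase Mgst1 at 8.66-fold. Receptors and factors that control the enzymes were higher in 4 of 17 cases, namely Nr5a1 (5.98-fold), Ppara (3.67-fold), Nfe2l2 (3.00-fold) and Nr1h4 (2.43-fold). Efflux transporters gave 2 higher and 2 lower calls of 14, close to the shares over all probe sets. The 2 lower ones were Abcg2 and Abcb1a, which export drugs, at 0.260 and 0.454 times their inputs. In the Sertoli IPs the same lists, in the order given, had 5 higher and 1 lower of 11, 6 and 0 of 11, 2 and 3 of 14, 7 and 2 of 21, 3 and 1 of 7, 3 and 1 of 16, and 2 and 2 of 15, the last of these and the 3 and 1 of 16 being close to the shares over all probe sets. Slc7a11 was there at 0.336 times its input, whereas Abcc1, an exporter of glutathione conjugates, was 6.43-fold higher. The lists' median ratios in the Leydig line ran from 0.937 for the transporters to 4.52 for the dehydrogenases.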

How the data were processed

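The deposited values were log2 expression values from the Mouse Gene 1.0 ST array, which the authors obtained with RMA from NuGEN-amplified RNA. RMA puts the arrays on one scale, and levels were compared within a probe set only. Probe sets were named from the platform annotation, and 1621 with several symbols and 12146 unlisted ones were not named. The probe set with the highest mean over the 32 arrays stood for a gene.

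Contrasts were fitted with limma 3.58.1 in R 4.3.3 to probe sets with a linear signal over 50 in at least 1 array of the fit, and Benjamini-Hochberg adjusted over all of them. Calls needed an adjusted p under 0.05 and 2-fold (IP against input, and the difference of these ratios) or 1.5-fold (between IPs). Enrichments were fitted within a line on saline arrays, and hormone effects on all IPs of a line. The fits were tested on simulated data. The members and lists were chosen with earlier results of these data known. Named genes were 4 that the study names (Ces1d, Pon3, Cyp2j6 and Gstk1), enzymes known to act on steroids or lipids, the 12 largest rises and 8 largest falls of each enrichment, called genes of other comparisons (at most 10 each), and called genes of the pathway lists (at most 4 a list).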

Additional observations from a re-analysis of the deposited data

Results flagged for a closer look

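Among 58 sets of arrays (29 named genes in the Sertoli inputs and the Sertoli IPs) 4 held 1 array far from the rest by Dixon's test, which flags about 1 in 20 such sets by chance. Cyp2c55 was at 4.81 in Sertoli input 4, where the others were at 6.65 to 7.07, and at 4.27 in Sertoli IP 5, where the others were at 5.12 to 5.31. Gstt4 was at 10.08 in Sertoli IP 1 (others 10.31 to 10.37) and Gstm6 at 11.28 in the same array (others 10.86 to 10.90).

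The log2 ratio of IP to input differed between lines by the contrast of the ratios itself, among the named genes, for Ces1d (6.36), Sult1e1 (5.52), Pon3 (5.51), Ephx1 (5.34), Cyp2j6 (4.03), Aox3 (3.97), Ugt3a2 (3.68), Aox1 (3.65), Gsta3 (2.97), Gstt1 (2.95), Sult1a1 (2.75), Gstk1 (2.33), Pon2 (2.11), Ephx2 (2.02), Cyp2d22 (1.59) and Cyp2c55 (1.54), each more positive in the Leydig line. Cyp2j6 and Ugt3a2 were under the signal filter in every Sertoli array and Cyp2c55 in every Leydig array, and the Cyp2c55 call was lost without any one of 11 arrays. The fitted effect of acyline on Ugt3a2 differed between lines by -1.91, with all Sertoli values under the filter.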

How the results depend on the processing

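Leaving out 1 array at a time gave 28 higher and 2 to 3 lower calls in the Leydig IPs, 8 to 9 higher and 11 to 13 lower in the Sertoli IPs, 21 to 23 higher and 0 lower for the difference of the ratios, and 29 higher and 5 to 6 lower between IPs. Of the single-gene values recomputed under all alternatives 1205 kept direction and call, 29 kept the direction and lost the call, and 5 changed sign. Of the 29, 15 were the Cyp2c55 difference between lines, which also lost its call without the filter, after median centring and in the ordinary contrast. The sign changed for Fmo1 in the Leydig IPs (-0.0081 after median centring, -0.0162 after quantile normalization, -0.0446 without Leydig input 3, -0.0490 without Leydig IP 2, and up to 0.05317 without other single arrays) and for Sult1a1 in the Sertoli IPs (-0.000997 without Sertoli input 2, and up to 0.1387 without other single arrays).

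The single call under acyline in the Leydig IPs became 0 in the ordinary contrast, 0 with the replicate block and 2 in a fit of the groups compared alone; without adjustment the ordinary contrast gave 2. For LH 4 h against saline the 3 calls became 0 with the replicate block, where the adjusted p was 0.0605 for Ugt3a2 and Cyp2d22, and 2 to 5 without single arrays, 5 being the count without LH 4 h replicate 1. Without adjustment the ordinary contrast called 2 for LH 4 h against acyline and 1 for acyline in the Sertoli IPs, where limma called 0. The difference in acyline effect gave 2 calls after quantile normalization and 3 in the unadjusted ordinary contrast, against 1. The causes were not tested.

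Arrays with the same number shared little beyond it: the deviations of IPs and inputs from their group means correlated at -0.035 to 0.141 in the Sertoli and 0.026 to 0.149 in the Leydig line, and those of pairs of IP groups at -0.165 to 0.12, so the numbers were not read as pairs. Crossed numbers, tried after seeing the data where the correlation was -0.148 (LH 4 h against acyline) and -0.137 (testosterone against cetrorelix), gave 0 calls each. Sertoli saline IPs 4 and 5 resembled each other more than they did the other 3, and without both, also tried after seeing the data, 9 enzymes were higher and 13 lower in the Sertoli IPs. Genes under the filter have no measured ratio, and groups of 2 arrays limit the hormone comparisons.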
